A study of Mus musculus with 22 samples.

Results

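The transcripts described here are those of the mitochondrial genome, taken as the genes whose GENCODE vM21 symbol starts with mt-. All 37 of them were found among the 33984 genes that could be named in the count files. They comprise 2 rRNA genes, 13 protein-coding genes and 22 tRNA genes, and each is represented by its only transcript. The study measured RNA of adult mouse choroid plexus (ChP), the epithelium that secretes cerebrospinal fluid, and asked what the transcription factor OTX2 does there.

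RNA was sequenced from 14 pools of ChP in 7 groups of 2 pools (A and B). In the conditional model (strain S129 in the labels), 3-month-old Otx2lox/lox mice received Cre-Tat protein or vehicle into the cerebral ventricles and were kept for 15 days, and ChP of the lateral ventricles (LV) and of the 4th ventricle (4V) was dissected apart into pools of 5 Cre-Tat or 4 vehicle mice. In the constitutive model (strain B6D2), 4V ChP was taken from wildtype mice (written "Ot2 (+/+)" in the labels), from mice labelled Otx2 (+/-), named Otx2+/GFP in the study, and from mice labelled Otx2 (+/AA), an allele that the study's text does not describe. Per the study's methods, 3-month-old mice were pooled here too, 4 Otx2+/GFP and 5 wildtype littermates, without saying whether per pool. The age of the Otx2 (+/AA) mice is not given there. Cre-Tat reaches the cells that take up the protein, so that its pools may mix cells with and without recombination. Every allele of the constitutive model is carried by all cells of the animal. The models were sequenced in separate runs, so that model, strain and run cannot be told apart. Otx2 itself was counted at 383 and 392 CPM (counts scaled to library size) in the 4V pools labelled vehicle and at 1195 and 1211 CPM in those labelled Cre-Tat. It was at 391 and 476 CPM in LV vehicle and 1245 and 1015 CPM in LV Cre-Tat pools, and at 362 and 303 CPM in wildtype, 1034 and 884 CPM in Otx2 (+/-) and 339 and 353 CPM in Otx2 (+/AA) pools. These values are those of the most counted Otx2 transcript alone, and other transcripts or single exons were not analysed. That transcript was thus higher in the pools whose labels name a loss of Otx2, Cre-Tat and +/-, than in their controls. Epithelial ChP markers went the other way, with a sum over 12 of them of 99259 and 87947 CPM in 4V Cre-Tat against 217810 and 185447 CPM in 4V vehicle, and of 126072 and 165000 against 226389 and 235890 CPM in LV. In Otx2 (+/-) they summed to 126885 and 133289 CPM against 200803 and 189223 CPM in wildtype. Whether labels were exchanged was not tested, so groups are called by their labels, and each direction between Cre-Tat and vehicle or between +/- and the other genotypes rests on them. Pools held 22750019 to 50088408 counts over all transcripts, and the 4V vehicle pools were the shallowest. Fewer cells of a type and less RNA per cell cannot be told apart in such bulk samples.

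The mitochondrial genome is a small circle that is transcribed from both strands into long precursor RNAs, out of which the tRNAs are cut so that the rRNAs and mRNAs between them are released. Its rRNAs form the core of the mitochondrial ribosome, and its mRNAs encode membrane subunits of the respiratory chain (Nd genes for complex I, Cytb for complex III, Co genes for complex IV) and of the ATP synthase (Atp genes). All other proteins of the organelle, including those that transcribe and process its RNA, come from nuclear genes. Nuclear chromosomes also carry inserted pieces of mitochondrial DNA, annotated as pseudogenes, and the choroid plexus epithelium is known for its many mitochondria.

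Of the 13 mRNAs, 7 were counted at high levels and 6 were almost absent from the files. Summed over all 14 pools, mt-Nd1 had 1667358 counts, mt-Cytb 711496, mt-Nd2 622840, mt-Co1 589160, mt-Nd5 422391, mt-Nd4 343081 and mt-Nd6 38567. By contrast, mt-Nd3 had 56 counts, mt-Co3 18, mt-Co2 16, mt-Atp6 15, mt-Nd4l 1 and mt-Atp8 0. The poorly counted mRNAs are neighbours on the mitochondrial chromosome, between mt-Co1 and mt-Nd4.

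The same stretch has a nearly unchanged copy on chromosome 1. On the minus strand of chromosome 1, 7 annotated pseudogenes between 24611535 and 24616197 (GRCm38) follow each other in the order of mitochondrial positions 6381 to 11043, a stretch of 4663 bases. Of these copies, 5 keep exactly the spacing of the mitochondrial map, and those of mt-Nd4l and mt-Nd4 are shifted by 1 base. The copies of mt-Co2 (Gm28661), mt-Atp6 (Gm10925), mt-Co3 (Gm28437), mt-Nd4l (Gm10222) and the first 876 bases of mt-Nd4 (Gm28439) had no difference from the mitochondrial sequence. The copy of mt-Nd3 (Gm28438) had 1 difference over 345 aligned bases, T3C, where positions are counted from the first base of the gene, the mitochondrial base is named first and the base of the copy last. The starts of the mt-Nd3 and mt-Co2 transcripts and of their copies, shown 5′ to 3′ from the GENCODE vM21 transcripts, give an idea of how alike they are; the differing base of mt-Nd3 is in capitals.
mt-Nd3, chrM:9459-9518, plus strand: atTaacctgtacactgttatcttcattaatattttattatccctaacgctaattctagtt
Gm28438, chr1:24613060-24613119, minus strand: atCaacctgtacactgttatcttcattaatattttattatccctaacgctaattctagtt
mt-Co2, chrM:7013-7072, plus strand: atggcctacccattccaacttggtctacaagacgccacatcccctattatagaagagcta
Gm28661, chr1:24615506-24615565, minus strand: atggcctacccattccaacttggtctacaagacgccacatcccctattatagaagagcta

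Both edges of the copied stretch fall inside genes that were counted well. In mt-Co1 (1545 bases), the chromosome 1 copy Gm29216 differs at 6 bases before base 1067 of the gene and is unchanged from there over the remaining 479 bases. In mt-Nd4 (1378 bases), the copy ends after base 876. These edges are shown with the unbroken run shared with the copy in capitals. Bases that mt-Co1 and its copy share between the 6 differences ahead of that run are in lower case.
mt-Co1, chrM:6381-6440, plus strand: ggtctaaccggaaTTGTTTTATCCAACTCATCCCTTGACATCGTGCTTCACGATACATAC
Gm29216, chr1:24616138-24616197, minus strand: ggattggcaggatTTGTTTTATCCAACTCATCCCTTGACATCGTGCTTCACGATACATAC
mt-Nd4, chrM:11013-11072, plus strand: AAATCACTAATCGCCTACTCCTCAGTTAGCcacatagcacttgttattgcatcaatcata

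The reads were 50 bases long, and the share of 50-base windows of each gene that occurs unchanged in an annotated nuclear transcript was computed on either strand. It was 100% for mt-Co2, 99.9% for mt-Co3, 99.5% for mt-Atp6, 98.8% for mt-Nd4l and 98.0% for mt-Nd3, all of them mRNAs with at most 56 counts. For mt-Nd4 the share was 62.2% and for mt-Co1 51.1%, the latter also through Gm13340 on chromosome 2. It was 8.19% for mt-Nd2, 7.61% for mt-Nd5 and 1.04% for mt-Rnr2, and 0% for mt-Nd1, mt-Nd6, mt-Cytb, mt-Rnr1, mt-Atp8 and every tRNA gene.

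The low counts followed the position of the genes. The 11 members that lie wholly inside the stretch had 0 to 56 counts each and 140 in all, and these include mt-Atp8 and the tRNA genes mt-Ts1, mt-Td, mt-Tk, mt-Tg and mt-Tr, for which no annotated copy of their own was found. The 24 members outside it had 0 to 53495738 counts with a median of 1101. Of the 140 counts inside, 130 came from the 6 pools of the B6D2 run and 10 from the 8 pools of the S129 run. Few reads were credited to the nuclear copies that are listed in the files, with 641 counts over all files on Gm13340 (mt-Co1), 123 on Gm11512 (mt-Co1), 50 on Gm13341 (mt-Co2), 15 on Gm13339, 7 on Gm11407 and 0 on Gm10222. Of the 7 copies on chromosome 1, Gm10222 is the only one among them. No counts of the others could be looked up under their GENCODE vM21 transcripts. What the authors did with reads that match several places was not given in the sources used here, and its part in the low counts was not tested. No level of these 6 mRNAs can be read from the files, and it is not known which part of mt-Co1 and mt-Nd4 the counts come from.

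**Figure D1:**
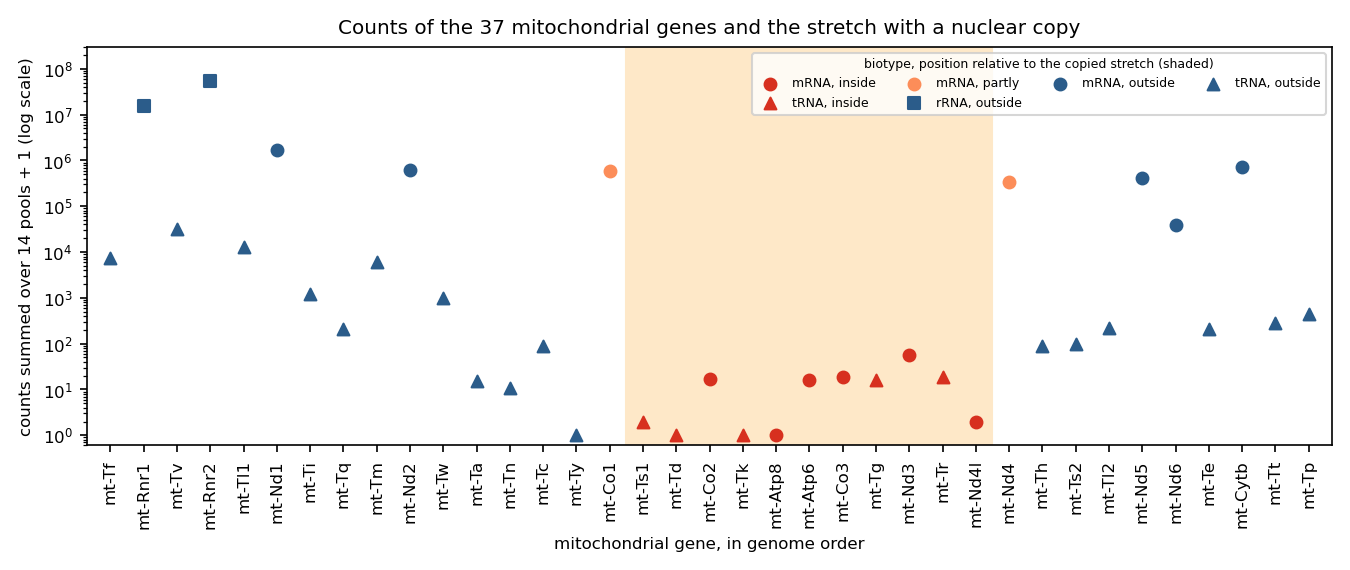
Counts of each of the 37 mitochondrial genes summed over the 14 pools, plus 1, on a log scale, in the order of the genes on the mitochondrial chromosome; squares are rRNA, circles mRNA and triangles tRNA genes, and shading marks the 11 genes wholly inside the stretch copied on chromosome 1. The genes in the shaded stretch have 0 to 56 counts, while mt-Co1 and mt-Nd4 on its edges have 589160 and 343081.

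Mitochondrial transcripts made up a large part of the gene counts of every pool, where each gene is counted by its most counted transcript alone. Gene counts of 4V vehicle pool B, for example, were 10558002 of its 22750019 counts over all transcripts. The mitochondrial genes have no further transcripts, so all shares here are higher than over all transcripts. Of the gene counts, 20.7 to 32.7% fell on the 37 members, and most of these on the rRNAs, which took 19.0 to 30.6%. The mRNAs took 0.934 to 2.35% and the tRNAs 0.00918 to 0.0495%. According to the labels, ribosomal RNA was removed before the libraries were made, while the study's text describes selection of polyadenylated RNA, so the rRNA share describes what the library step left and not the amount of rRNA in the tissue. The 4V vehicle pools had the lowest mRNA share, 0.979 and 0.934% in pools A and B, against 1.62 and 1.87% in the LV vehicle pools. The 4V Cre-Tat pools differed from each other more than any other group, with 1.38% in pool A and 2.35% in pool B.

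The number of rRNA counts per mRNA count was highest in the 4V vehicle pools, 23.7 and 22.6. In 4V Cre-Tat it was 20.5 in pool A and 10.7 in pool B, the highest and lowest values outside the vehicle group, and it lay between 11.4 and 18.9 in the other 10 pools. With 2 pools against 2, the smallest p of the exact two-sided permutation test is 0.33, so none of these shares and ratios could pass 0.05. Within the rRNAs, mt-Rnr2 (16S) had 3.73 and 3.66 counts for each count of mt-Rnr1 (12S) in the 4V vehicle pools and 3.21 and 3.02 in the 4V Cre-Tat pools. In LV the ratio was 3.83 and 3.86 with vehicle and 3.15 and 3.35 with Cre-Tat, so that it was lower in the pools labelled Cre-Tat of either ventricle without overlap (exact permutation p = 0.33 in each). In the constitutive model it ranged widely between pools of a group, from 2.68 to 3.90 in wildtype.

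**Figure D2:**
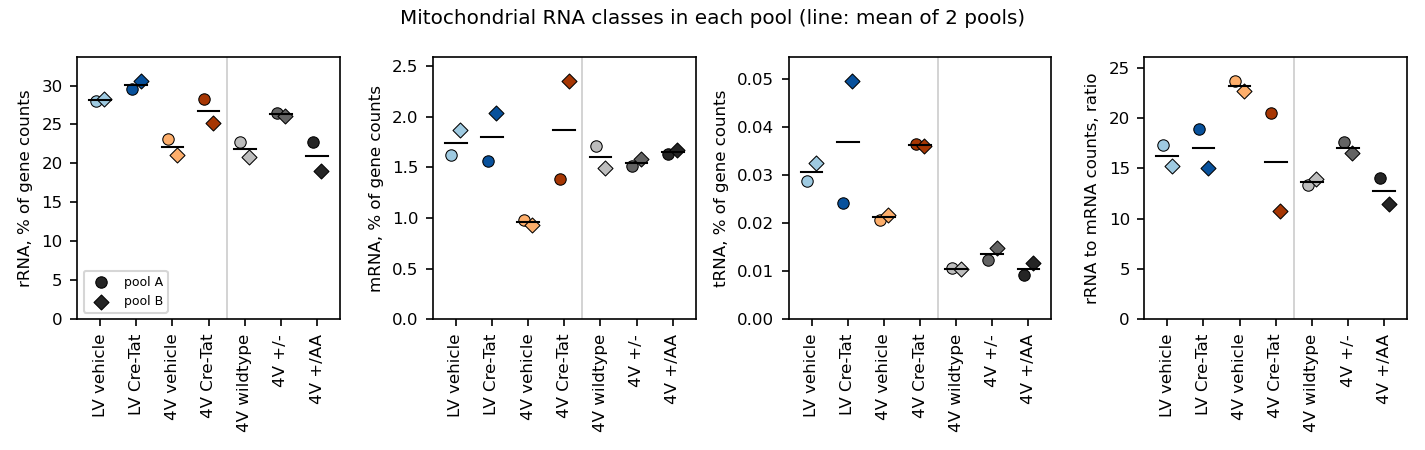
Percent of all gene counts that fell on mitochondrial rRNA, mRNA and tRNA genes, and the ratio of rRNA to mRNA counts, in each pool; circles are pool A, diamonds pool B and lines the mean of 2 pools, and the grey line separates the S129 run (left) from the B6D2 run (right). The mRNA share is lowest in the 4V vehicle pools (0.979 and 0.934%), and the 4V Cre-Tat pools lie far apart (1.38 and 2.35%).

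Levels of different genes were compared per kilobase of transcript, as TMM-normalised CPM per kb. Among the 7 counted mRNAs, mt-Nd1 was the highest in all 14 pools, with 3399 to 9525 CPM per kb, and mt-Nd6, the only mRNA gene on the opposite strand, the lowest in all 14, with 170 to 480. Between them, mt-Nd2 and mt-Cytb held ranks 2 to 4, mt-Co1 ranks 3 to 5, mt-Nd5 ranks 4 to 6 and mt-Nd4 ranks 5 to 6, depending on the pool, so that neighbours in this order overlapped. Scaled by the number of 50-base windows that have no nuclear copy in place of the length, mt-Co1 held ranks 2 to 5, mt-Nd4 ranks 3 to 5 and mt-Nd5 rank 6, while mt-Nd1 and mt-Nd6 kept the ends of the order. The rRNAs were far above the mRNAs on the per-kb scale, at 81294 to 170042 CPM per kb for mt-Rnr2 and 44092 to 77230 for mt-Rnr1. The strand used for counting was not given, and reads from the precursor of the other strand over mt-Nd6 cannot be told apart from its own.

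The make-up of the mRNA counts differed between the runs, and for some mRNAs also between pools of the S129 run. Of the counts on the 7 mRNAs, mt-Nd2 took 18.2 to 19.2% in the 6 pools of the B6D2 run and 9.37 to 12.2% in the 8 pools of the S129 run. For mt-Cytb the order was the opposite, 10.6 to 13.4% against 17.8 to 20.9%. By contrast, mt-Nd1 took 34.7 to 38.8% and 35.7 to 40.9%, ranges that overlap. The runs differ in strain and model, which cannot be told apart from the run. Inside the S129 run, pool B of 4V Cre-Tat stood out, with mt-Co1 at 8.85% of the mRNA counts against 11.6 to 16.3% in the other 7 pools, and mt-Nd5 at 13.6% against 9.40 to 11.8%.

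**Figure D3:**
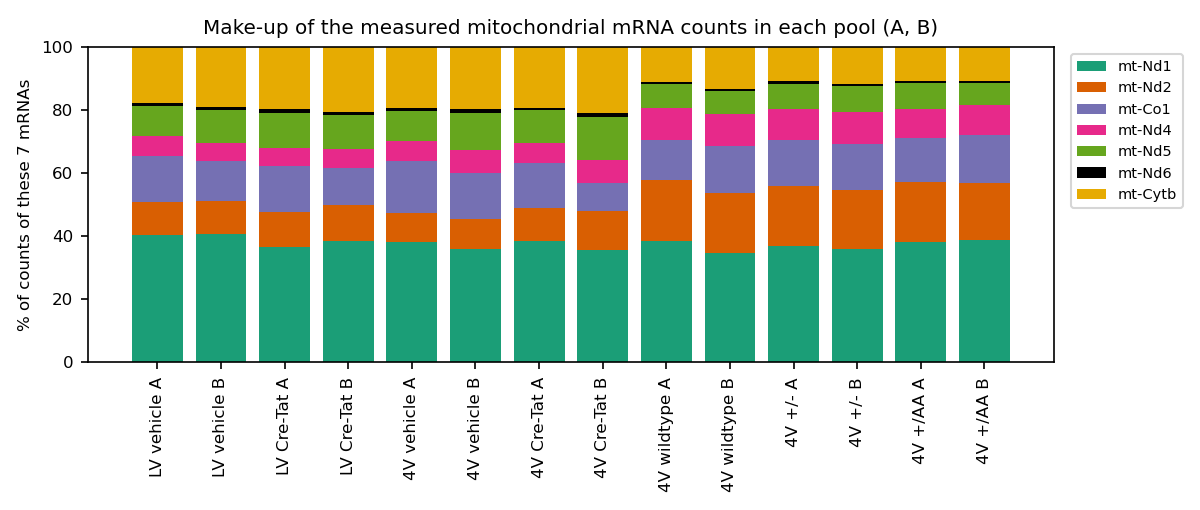
Percent of the counts of the 7 counted mitochondrial mRNAs that fell on each, as stacked bars from 0 to 100% for the 14 pools. The mt-Nd2 part is wider and the mt-Cytb part narrower in the 6 pools of the B6D2 run (4V wildtype, +/- and +/AA) than in the 8 pools of the S129 run.

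Between ventricles of vehicle mice, mitochondrial transcripts were higher in LV than in 4V. All 7 counted mRNAs passed the test, at 1.79- to 2.30-fold higher levels, with mt-Rnr2 and 5 tRNAs. In all, 13 of the 19 members tested were called higher and none lower, where 7.44% of all 14561 genes tested were called in either direction and 3.46% higher. The median log2 fold change (LV over 4V) was 0.84 over the 19 members and 0.01 over all genes. The other 18 members did not reach the filter on low counts. LV and 4V pools of a treatment come from the same injected mice, but which pools share mice is not stated, and the test treats them as independent. With the pool letter as a block, 14 members were called, all higher.

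For mt-Nd2, a complex I subunit, the values were 1957 and 2319 CPM in LV pools A and B and 954 and 865 CPM in the 4V pools, a log2 fold change of 1.20 (SE 0.13, adjusted p = 0.0001; here and below from the quasi-likelihood test of edgeR, adjusted by Benjamini-Hochberg). For mt-Nd1, also of complex I, they were 7535 and 9116 CPM against 3870 and 3253 CPM (log2 fold change 1.19, SE 0.15, edgeR adjusted p = 0.00024). For mt-Cytb, the complex III subunit, they were 3309 and 4241 CPM against 1980 and 1781 CPM (log2 fold change 0.97, SE 0.14, edgeR adjusted p = 0.0011). Both LV pools were above both 4V pools in each of the 7 mRNAs, as they were in 29.8% of all genes tested.

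The catalytic complex IV subunit mt-Co1 had 2681 and 2820 CPM in LV and 1662 and 1337 CPM in 4V, the smallest of the mRNA differences with a log2 fold change of 0.84 (SE 0.14, edgeR adjusted p = 0.0024). For mt-Nd6, on the opposite strand, 170 and 245 CPM in LV stood against 92.3 and 108 CPM in 4V (log2 fold change 1.02, SE 0.16, edgeR adjusted p = 0.0015). The log2 fold changes of mt-Nd4 and mt-Nd5 were 0.90 and 0.96 (edgeR adjusted p = 0.00051 and 0.0011). The value of mt-Nd6 thus lay within the range of the 6 mRNAs of the other strand.

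The rRNAs differed less. For mt-Rnr2 there were 255510 and 269007 CPM in LV against 189992 and 161215 CPM in 4V, a log2 fold change of 0.55 (SE 0.15, edgeR adjusted p = 0.046). For mt-Rnr1 the log2 fold change of 0.49 (SE 0.14) did not pass the test (edgeR adjusted p = 0.056). Over the tRNAs, 5 of the 10 tested were called higher, namely mt-Tl1, mt-Tm, mt-Tw, mt-Tf and mt-Tv, and 2 of the remaining 5 had negative log2 fold changes (mt-Tp and mt-Tq, both -0.57).

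This difference held with each pool left out in turn, when 11 to 12 members were called, all higher, and with DESeq2, which called 13, of which 12 were the same. It depends on how files were joined to pools: by the samples to which the files are attached, in place of the library numbers, 6 members were called higher and 8 lower in LV. Of all 14454 genes tested in that way, 2283 were called higher and 2435 lower. As attached, however, the files said to be runs of 1 pool differed by 21.1 to 37.3 times what counting noise gives, against 1.00 to 1.04 times when joined by library number.

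**Figure D4:**
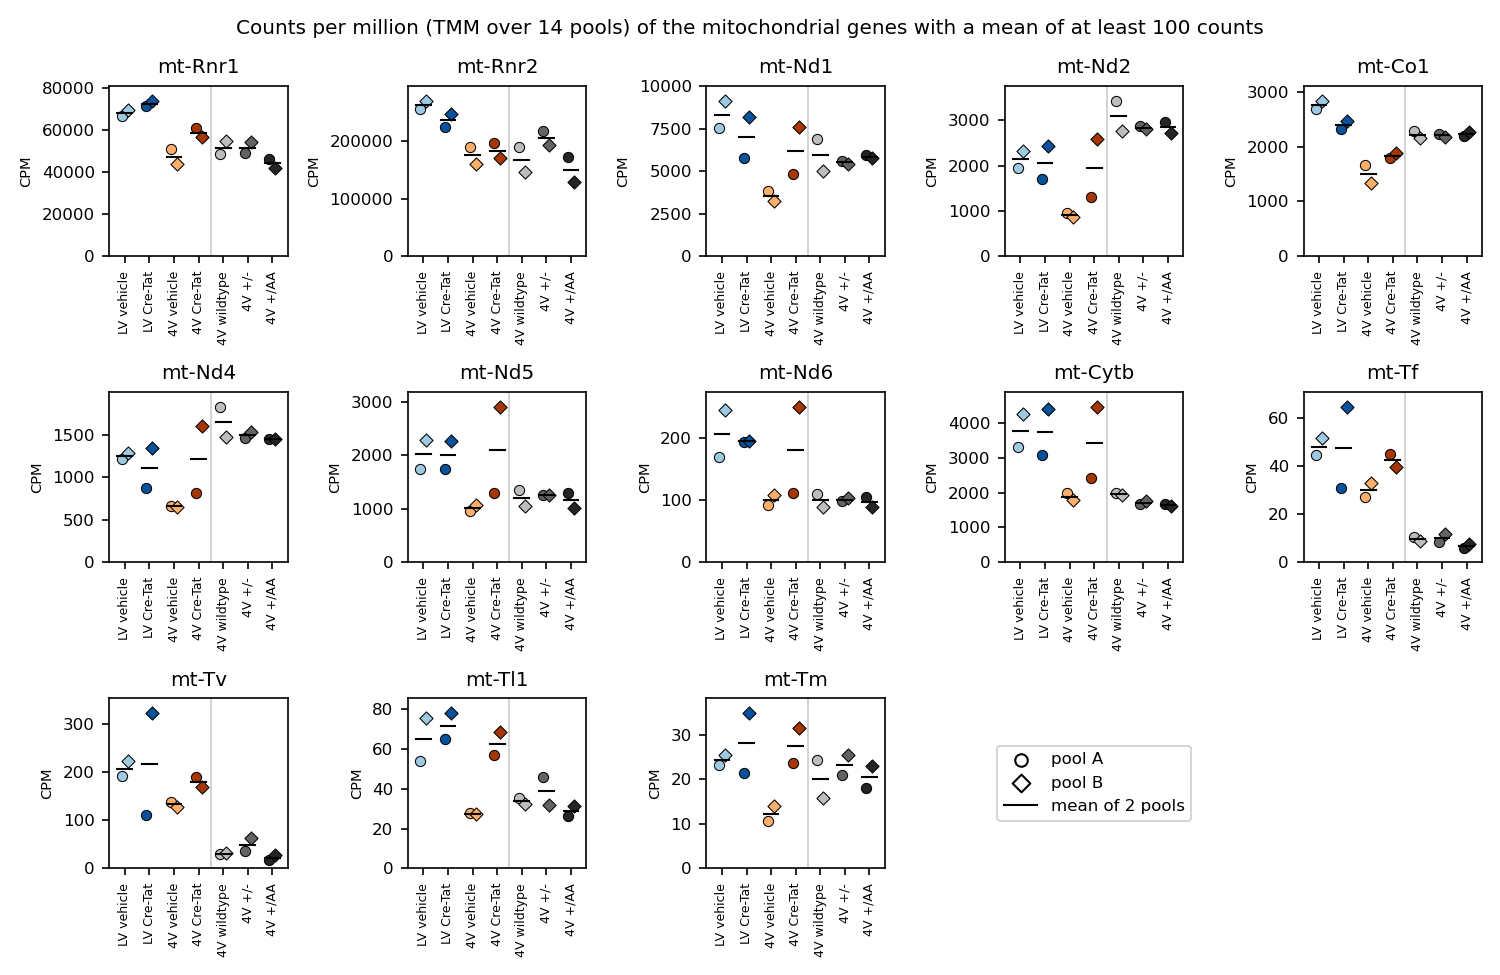
CPM (TMM over all 14 pools, linear axes from 0) of the 2 rRNAs, the 7 counted mRNAs and the 4 tRNAs with a mean of at least 100 counts; circles are pool A, diamonds pool B and lines the mean of 2 pools. The LV vehicle pools lie above the 4V vehicle pools in every panel, and the 4V Cre-Tat pools lie far apart for mt-Nd1, mt-Nd2, mt-Nd4, mt-Nd5, mt-Nd6 and mt-Cytb but not for mt-Co1.

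In 4V ChP, mitochondrial mRNAs were counted higher in the pools labelled Cre-Tat than in those labelled vehicle, by an amount that pool B of the Cre-Tat group decides to a large extent. The mRNAs that passed the test were 6 (mt-Nd1, mt-Nd2, mt-Nd4, mt-Nd5, mt-Nd6 and mt-Cytb), and 4 tRNAs passed too, while mt-Co1 and both rRNAs did not. These 10 of 20 tested members were all higher, where 10.7% of all 14550 genes tested were called and 5.7% higher. The median log2 fold change was 0.83 over the 20 members and 0.01 over all genes. This comparison uses the same 4V vehicle pools as the one between ventricles, so that the higher values of either set against them are not independent.

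For mt-Nd2 the Cre-Tat pools A and B had 1320 and 2593 CPM and the vehicle pools 954 and 865 CPM, a log2 fold change of 1.11 (SE 0.23, edgeR adjusted p = 0.0038). For mt-Nd5 there were 1299 and 2894 CPM against 957 and 1072 CPM (log2 fold change 1.05, SE 0.25, edgeR adjusted p = 0.011). The opposite-strand mt-Nd6 had 111 and 249 CPM against 92.3 and 108 CPM (log2 fold change 0.85, SE 0.24, edgeR adjusted p = 0.027). In each of these genes pool B lay above pool A, and both above the vehicle pools.

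The other mRNAs followed the same pattern with log2 fold changes of 0.88 for mt-Nd4, 0.87 for mt-Cytb and 0.81 for mt-Nd1 (edgeR adjusted p = 0.0147, 0.0175 and 0.0217). For mt-Cytb the values were 2423 and 4438 CPM in Cre-Tat pools A and B and 1980 and 1781 CPM with vehicle. Unlike these, mt-Co1 had 1785 and 1881 CPM in the Cre-Tat pools, close to each other, against 1662 and 1337 CPM (log2 fold change 0.30, SE 0.17, edgeR adjusted p = 0.34). All 7 mRNAs were higher in both Cre-Tat pools than in both vehicle pools, as were 24.8% of all genes tested.

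Among the rRNAs, mt-Rnr1 had 61310 and 56628 CPM against 50956 and 44038 CPM (log2 fold change 0.32, SE 0.26, edgeR adjusted p = 0.54). For mt-Rnr2 the pools overlapped, at 196543 and 171155 CPM with Cre-Tat and 189992 and 161215 CPM with vehicle (log2 fold change 0.07, SE 0.31, edgeR adjusted p = 0.93). Neither rRNA had its higher value in pool B.

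Of the 11 tRNAs tested, 8 lay higher in both Cre-Tat pools than in both vehicle pools, as did 24.8% of all genes tested. The pools overlapped for mt-Tq, mt-Te and mt-Tp. For mt-Tl1, the tRNA for leucine next to mt-Rnr2, there were 56.9 and 68.2 CPM with Cre-Tat and 27.9 and 27.1 CPM with vehicle, the strongest call among the members (log2 fold change 1.19, SE 0.14, edgeR adjusted p = 2.1e-05). For mt-Tm, the methionine tRNA ahead of mt-Nd2, there were 23.6 and 31.5 CPM against 10.6 and 14.1 CPM (log2 fold change 1.18, SE 0.19, edgeR adjusted p = 0.00041). Smaller log2 fold changes were called for mt-Tf (0.51, edgeR adjusted p = 0.032) and mt-Tv (0.44, edgeR adjusted p = 0.045).

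Without pool B of 4V Cre-Tat, 6 members were called, 5 of them among the 10. The log2 fold change of mt-Nd2 was then 0.55 (edgeR adjusted p = 0.022), mt-Nd1 had 0.46, mt-Cytb 0.38, mt-Nd5 0.37, mt-Nd4 0.32 and mt-Nd6 0.16, and none of these 5 passed (edgeR adjusted p = 0.11 to 0.66). The 4 tRNAs passed with log2 fold changes of 1.06 for mt-Tl1, 0.96 for mt-Tm, 0.60 for mt-Tf and 0.53 for mt-Tv. Without pool A, 9 members were called, 8 of them among the 10. There mt-Nd2 and mt-Nd5 each had a log2 fold change of 1.51, mt-Tl1 and mt-Tm passed with 1.31 and 1.36, and mt-Tf (0.41, edgeR adjusted p = 0.13) and mt-Tv (0.35, edgeR adjusted p = 0.17) did not pass. DESeq2 called 4 members, mt-Tl1, mt-Tm, mt-Nd1 and mt-Tv.

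Other transcripts moved with these groups too, where 10.7% of all 14550 genes tested were called in either direction and 5.7% higher. Of the 12 epithelial ChP markers, all of them counted and with the summed levels given above, 10 were called lower in the 4V Cre-Tat pools and 1 (Otx2) higher. Of 8 markers of macrophages and microglia, none at or under 3 counts, 4 of the 7 tested were called higher, with summed levels of 74.0 and 55.0 CPM against 37.8 and 35.4 CPM. Of 4 long RNAs that stay in the nucleus, Neat1 alone was called, at 627 and 829 CPM against 370 and 375 CPM. Markers of ependyma summed to 270 and 251 CPM against 179 and 140 CPM, with Foxj1 called higher, and those of blood to 27.7 and 14.5 CPM against 5.37 and 4.69 CPM, with Ptprc called higher. The other lists held calls of Plvap, Cnp, Aqp4, Gfap and Col1a2 higher and of Syt1, Aldh1l1 and Pdgfra lower. Of 10 tested RNAs without a poly(A) tail, 2 histone RNAs were called higher, Hist1h4i (14.5 and 10.6 against 7.28 and 7.27 CPM) and Hist1h2bc (127 and 116 against 97.8 and 80.0 CPM), at log2 fold changes of 0.79 and 0.46 (edgeR adjusted p = 0.018 and 0.047). The list of these RNAs summed to 2443 and 1670 CPM against 2555 and 1714 CPM, with a median of -0.08. The part of these transcripts in the mitochondrial values was not tested.

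In LV ChP, no mitochondrial transcript was called between the pools labelled Cre-Tat and vehicle. Of the 21 members tested, 0 passed edgeR's adjusted threshold and 1 had an unadjusted p under 0.05, DESeq2 also called 0, and 3.24% of all 15002 genes tested were called. The log2 fold changes of the 7 mRNAs lay between -0.23 (mt-Nd1, SE 0.20) and 0.02 (mt-Nd5, SE 0.19). The median over all 21 members was 0.02.

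The Cre-Tat pools of LV differed from each other. For mt-Nd1 they had 5763 CPM in pool A and 8230 CPM in pool B, below both and between the vehicle values of 7535 and 9116 CPM. For mt-Tv, the valine tRNA between the rRNA genes, they had 111 and 321 CPM, below and above the vehicle values of 192 and 222 CPM. Only mt-Rnr1 (71566 and 73754 CPM against 66675 and 69610 CPM), mt-Rnr2, mt-Co1, mt-Tl2 and mt-Tp had groups that did not overlap, 5 of 21 members where the groups were apart in 42.9% of all genes tested. With pool B of LV Cre-Tat left out, 3 members were called lower, mt-Tv at a log2 fold change of -0.87, mt-Tf at -0.62 and mt-Nd1 at -0.51. With pool A left out, mt-Tv alone was called, and higher, at 0.68.

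The response to Cre-Tat in LV minus that in 4V was negative for 19 of the 20 members tested, with differences of log2 fold changes of -1.03 for mt-Tl1 (SE 0.25), -1.13 for mt-Nd2 (SE 0.36) and -1.04 for mt-Nd1 (SE 0.32). None passed edgeR's interaction test after adjustment, the smallest adjusted p being 0.75 for mt-Tl1, although 9 had an unadjusted p under 0.05; DESeq2 called 0. This test, too, treats the LV and 4V pools of the same mice as independent; it called 0 when the letter of the pools was a block. Across all 15565 genes tested, 0.00642% were called. A difference between ventricles in the response was thus not shown.

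**Figure D5:**
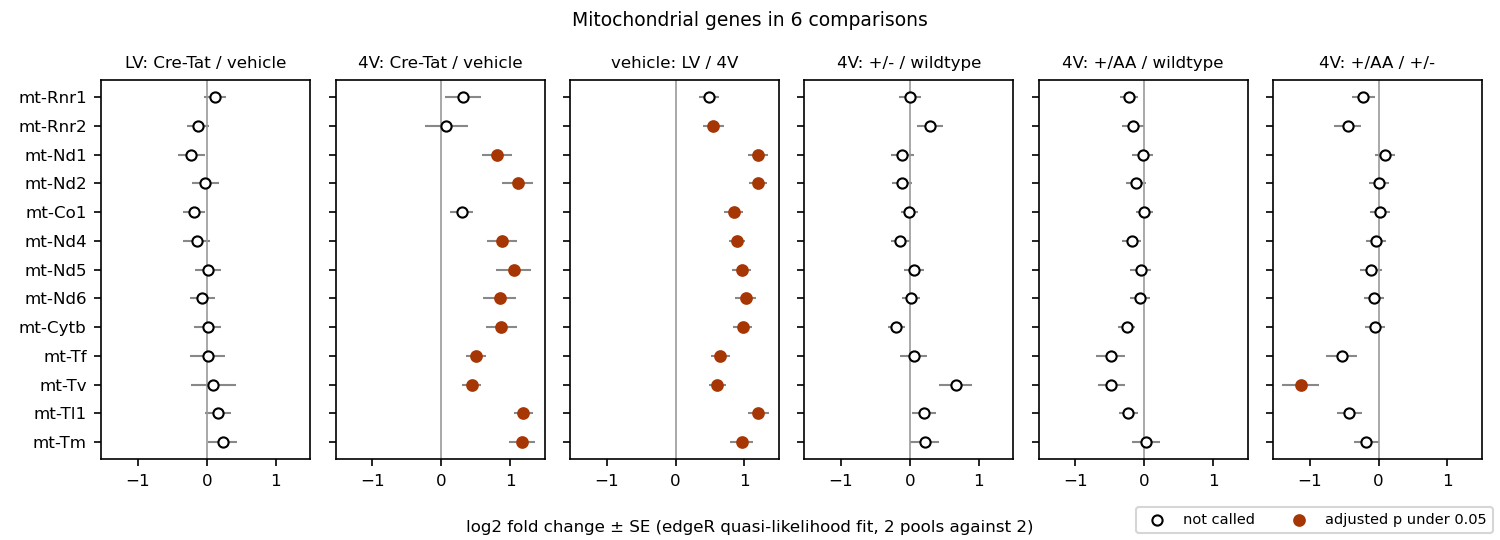
Log2 fold change with its standard error from edgeR's quasi-likelihood fit for the 2 rRNAs, 7 mRNAs and 4 tRNAs in 6 comparisons of 2 pools against 2; filled points have an adjusted p under 0.05. All 7 mRNAs are filled for LV over 4V vehicle, 6 of them for 4V Cre-Tat over vehicle, and no mRNA in the other 4 comparisons, where mt-Tv is the only filled point (+/AA over +/-).

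In the constitutive model, few differences between genotypes passed the test in 4V ChP. Between Otx2 (+/-) and wildtype, 0 of 20 members tested passed edgeR's adjusted threshold, 1 had an unadjusted p under 0.05, DESeq2 called 0, and 3.53% of all 14573 genes tested were called. For mt-Nd2 the values were 2881 and 2801 CPM in Otx2 (+/-) pools A and B and 3416 and 2759 CPM in wildtype (log2 fold change -0.12, SE 0.14). For mt-Cytb they were 1661 and 1755 CPM against 1978 and 1937 CPM, the mRNA with the smallest p in this comparison (log2 fold change -0.20, SE 0.12, edgeR adjusted p = 0.45). The smallest p of all members was that of mt-Tv, which was called higher, at log2 fold changes of 1.02 and 0.74, when pool A of Otx2 (+/-) or pool B of wildtype was left out. For mt-Rnr2 they were 217929 and 193861 CPM against 189297 and 147015 CPM (log2 fold change 0.29, SE 0.18, edgeR adjusted p = 0.46).

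Between Otx2 (+/AA) and wildtype, which are compared against the same wildtype pools, edgeR called 0 of 22 members, DESeq2 called 0, and 6 had an unadjusted p under 0.05, all of them tRNAs. Of all 14494 genes tested, 0.345% were called. The log2 fold changes of the 7 mRNAs lay between -0.26 for mt-Cytb (SE 0.12) and 0.00 for mt-Co1 (SE 0.13). Without pool B of Otx2 (+/AA), mt-Tv was called lower at a log2 fold change of -0.86.

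Compared with each other, the mutant groups differed in 1 member of 22, where 2.7% of all 14578 genes tested were called and 1.37% lower. This was mt-Tv, at 16.9 and 27.5 CPM in the Otx2 (+/AA) pools and 35.2 and 62.3 CPM in the Otx2 (+/-) pools, a log2 fold change of -1.13 (SE 0.26, edgeR adjusted p = 0.041). DESeq2 called none, and 9 members had an unadjusted p under 0.05 with edgeR. Without pool B of Otx2 (+/AA), mt-Ti (1.09) and mt-Tp (1.56) were called higher as well, and without pool B of Otx2 (+/-), mt-Tl1 (-0.66) lower; mt-Tv was called in each case. In wildtype, mt-Tv had 29.0 and 32.6 CPM. Other transcripts moved between the mutant groups too. Of 10 tested RNAs without a poly(A) tail, 3 were called lower in Otx2 (+/AA) and 1 higher (median log2 fold change -0.56), and of 4 nuclear RNAs 1, Malat1, lower (median -0.55). Of 6 fibroblast markers 2, Col1a2 and Dcn, were called lower. Their part in the mt-Tv value was not tested.

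The response of 4V ChP was also compared between models, as Cre-Tat over vehicle minus Otx2 (+/-) over wildtype. The difference was 1.22 on the log2 scale for mt-Nd2 (SE 0.34), 1.06 for mt-Cytb (SE 0.31) and 0.98 for mt-Tl1 (SE 0.23). With edgeR 0 of 21 members passed after adjustment (smallest adjusted p = 0.058, for mt-Tl1) and 10 had an unadjusted p under 0.05, while DESeq2 called 3 higher (mt-Tl1, mt-Nd1 and mt-Cytb); 1.64% of all 15327 genes tested were called.

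Of the 22 tRNA genes, 4 held 93.8% of the tRNA counts, and these are the ones whose sequences are shown, from the GENCODE vM21 transcripts on the plus strand of the mitochondrial chromosome, with the anticodon in capitals.
mt-Tf (phenylalanine), chrM:1-68: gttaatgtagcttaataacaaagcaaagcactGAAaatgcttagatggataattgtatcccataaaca
mt-Tv (valine), chrM:1025-1093: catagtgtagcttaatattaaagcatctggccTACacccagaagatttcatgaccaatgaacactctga
mt-Tl1 (leucine), chrM:2676-2750: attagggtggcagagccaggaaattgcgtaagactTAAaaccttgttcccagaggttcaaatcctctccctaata
mt-Tm (methionine), chrM:3845-3913: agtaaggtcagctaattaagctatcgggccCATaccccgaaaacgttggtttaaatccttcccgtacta

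The first 3 of these flank the rRNA genes, with mt-Tf ahead of mt-Rnr1, mt-Tv between the rRNA genes and mt-Tl1 after mt-Rnr2. Summed over all pools, mt-Tv had 32295 counts, mt-Tl1 12959, mt-Tf 7514 and mt-Tm 6143. The other 18 tRNA genes had 0 to 1197 counts each, and mt-Ty, mt-Td and mt-Tk had none. The 8 tRNA genes on the opposite strand had 974 counts together, 1.55% of the tRNA counts. The 4 tRNAs shown are 68 to 75 bases long, and reads of unprocessed precursors cannot be told apart from those of the tRNA itself.

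The rRNA-flanking tRNAs split the runs, and not all alike. In the S129 run mt-Tv ranged from 111 to 321 CPM and in the B6D2 run from 16.9 to 62.3 CPM, and mt-Tf from 27.3 to 64.3 CPM against 6.05 to 11.6 CPM, in both cases without overlap. For mt-Tl1 (27.1 to 77.7 against 26.5 to 45.8 CPM) and mt-Tm (10.6 to 34.8 against 15.8 to 25.6 CPM) the ranges overlapped. RNAs without a poly(A) tail, histone RNAs among them, differed between the runs as well. Summed over 13 of them, the level was 1621 to 3074 CPM in the S129 run and 860 to 1607 CPM in the B6D2 run. Run, strain and model cannot be told apart here.

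Nuclear genes that work on mitochondrial RNA showed few calls where the mitochondrial transcripts differed. In 4V Cre-Tat over vehicle, 0 of 19 genes of mitochondrial DNA transcription and replication, 0 of 24 of RNA processing and modification and 0 of 16 of RNA stability and decay passed edgeR's adjusted threshold, with medians of 0.12, 0.03 and 0.05 on the log2 scale, where 10.7% of all genes were called and 5.7% higher. The 77 mitochondrial ribosomal proteins tested had 0 calls and a median of 0.10. Of 79 nuclear-encoded subunits of the respiratory chain and ATP synthase, 2 were called higher, Cox5a (28.0 and 21.5 against 13.7 and 14.5 CPM) and Cox8b (9.61 and 8.93 against 5.0 and 4.69 CPM), both of complex IV, and the median was 0.07. Beside these medians stood 0.01 for all genes and 0.83 for the mitochondrial members.

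Among regulators of mitochondrial biogenesis in 4V Cre-Tat over vehicle, Ppargc1a, the coactivator PGC-1alpha, was called higher (112 and 155 against 72.0 and 88.6 CPM, log2 fold change 0.74, SE 0.16, edgeR adjusted p = 0.0049) and the nuclear receptor Esrrb lower (log2 fold change -0.66, edgeR adjusted p = 0.014), 2 of 14. For Ppargc1a, too, pool B held the higher value. Of 22 genes listed for mitochondrial content, 1 was called, the matrix chaperone Hspa9 (log2 fold change 0.46, edgeR adjusted p = 0.038). Of 11 mitophagy genes, Map1lc3b and Pink1 were called higher (0.77 and 0.44), and of 16 stress response genes tested, Gdf15 (1.18, at 6.80 and 4.09 against 2.65 and 2.12 CPM). These counts stand beside 10.7% of all genes called and 5.7% called higher.

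Between LV and 4V with vehicle, 4 of 78 nuclear respiratory chain subunits were called higher and none lower, where 3.46% of all genes were called higher, with a median of 0.25 against 0.01 for all genes. The largest change was that of Cox8b, at 16.8 and 22.2 CPM in LV and 5.0 and 4.69 CPM in 4V (log2 fold change 1.97, SE 0.20, edgeR adjusted p = 5.4e-05), followed by Ndufa3 and Cox6a1 at 0.57 each. The estrogen-related receptor gene Esrrg was lower in LV (48.5 and 50.1 against 101 and 118 CPM, log2 fold change -1.18). No gene was called of the 19, 24 and 16 for mitochondrial transcription, RNA processing and RNA stability. Of the 77 ribosomal proteins, Mrps10 was called lower (log2 fold change -1.17).

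A few markers of cell types were called between the ventricles with vehicle, where 7.44% of all genes were. The 12 epithelial markers summed to 226389 and 235890 CPM in LV and 217810 and 185447 CPM in 4V, 1 of them (Cldn2) was called higher and none lower. Of 8 endothelial and mural markers, Plvap and Pecam1 were called higher in LV, and the list summed to 356 and 406 CPM against 275 and 310 CPM. Of the other lists of non-epithelial cells, 1 marker of macrophages, fibroblasts and oligodendrocytes each was called higher, and 1 of astrocytes in each direction. The nuclear RNAs Malat1, Neat1 and Meg3 were lower in LV, Malat1 at 6201 and 2452 CPM against 9355 and 11127 CPM (log2 fold change -1.26, edgeR adjusted p = 0.022). These RNAs thus lay lower in the pools where the mitochondrial transcripts lay higher, and their part in the result was not tested.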

How the data were processed

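Total RNA of pooled choroid plexus was depleted of ribosomal RNA per the labels and sequenced in strand-specific libraries as 50-base reads; the study's text names poly(A)+ RNA instead. The deposited counts are whole numbers per Ensembl transcript, not normalised, that the authors obtained with Bowtie 0.12.9 and HTSeq 0.5.3 on mm10, after bcl2fastq 1.8.4 and with SAMtools; the submitters' processing notes also name DESeq 1.8.3. How multi-mapping reads were treated and which strand setting was used for counting are not given in the sources used here.

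There were 22 count files of 11253762 to 43790479 counts for the 14 pools. Of the 16 files of the conditional model, 14 are attached to a sample whose library number differs from that in the file's name; they were joined by library number, as the 2 runs of a pool then agree within sampling noise, and runs were summed. Of 95533 transcripts, 82807 were matched to GENCODE vM21 (GRCm38) and hold 89.5% of counts; 12726 were not matched and were left out. Per gene, the transcript with most counts over all files was used.

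Each comparison was fitted on its own pools alone with edgeR 4.0.16 in R 4.3.3 (filterByExpr, TMM, quasi-likelihood test, two-sided), with p-values adjusted by Benjamini-Hochberg over every gene tested and a threshold of 0.05. Differences between responses were interaction terms. The study's own DESeq was not used for the main test; DESeq2 1.42.0, other scalings and filters, left-out pools, the pool letter as a block and the files as attached were alternatives. Printed CPM share 1 TMM scaling over all 14 pools. Shares of counts were compared by exact permutation tests. Other steps used Python 3.11.15, pandas 2.3.3, NumPy 2.4.6 and SciPy 1.17.1. The fits were also run on counts simulated for LV Cre-Tat over vehicle and for Otx2 (+/-) over wildtype. Those counts were drawn with edgeR's own dispersions and independent pools. They cannot show how the fits behave with pools that share mice. LV and 4V pools of a treatment come from the same mice, per the study's methods, and the fits treat them as independent; p-values rest on 2 pools a group. Counting noise is small for the mRNAs and rRNAs at these depths and limits the rarer tRNAs.

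The genes named are all mitochondrial genes, with full values for the rRNAs, the mRNAs counted and tRNAs with a mean of at least 100 counts, and, of the lists of nuclear genes, those called. The members and lists were chosen with earlier results of these data known.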

Additional observations from a re-analysis of the deposited data

How the results depend on the processing

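Of the single-gene values under alternatives, 1628 stayed on their side of the threshold, of which 1515 kept direction and 113 changed sign with neither value past it. Another 81 newly passed it, 32 no longer did and 26 changed sign with a value past it. The number of called members between the ventricles (13) was 11 to 14 under the settings that kept all pools. With the files as attached it was 14, 6 higher and 8 lower, where 2283 of 14454 genes were called higher and 2435 lower. In 4V Cre-Tat over vehicle (10) it was 6 to 9 with a pool left out, 4 with DESeq2 and 16 with the pool letter as a replicate block. In LV Cre-Tat over vehicle (0) it was 0 to 3 with a pool left out and 14 with the files as attached. For Otx2 (+/-) and for Otx2 (+/AA) over wildtype (0 each) it was 0 to 1 with a pool left out and 1 with the block, and between them (1) it was 1 to 3 with a pool left out and 0 with DESeq2. The treatment by ventricle term (0) gave 7 without a filter and 11 with the files as attached. Over all genes, it called 8 higher and 23 lower of 23160 without a filter. As attached, it called 2766 and 2492 of 15380. The label by model term (0) gave 2 with total-count scaling, 3 with DESeq2, 8 without a filter, 1 with a mean count above 10, 7 with the block and 4 with the files as attached. Calls over all genes moved as well. In 4V Cre-Tat over vehicle the block called 1571 genes higher and 1543 lower of 14550, against 829 and 725 without it. DESeq2 called 591 and 558 there. With the files as attached, LV Cre-Tat over vehicle had 3391 higher and 3318 lower of 14956 genes, against 331 and 155 of 15002. The label by model term had 2263 and 2425 of 15421 as attached. With the block it had 487 and 561 of 15327, against 120 and 132 in the main fit. The causes were not tested.

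The mitochondrial share of counts, as a difference in percentage points, was 1.97 in LV Cre-Tat over vehicle (1.20 to 2.73 with a pool left out, 0.735 over all transcripts, 3.25 with the files as attached). It was 5.53 in 4V (4.47 to 6.59, 2.58 over all transcripts, 2.33 for members without a nuclear copy). For Otx2 (+/-) over wildtype it was 4.43 (3.37 to 5.49, 2.11 and 0.100), for Otx2 (+/AA) over wildtype -0.850 (-2.70 to 0.998) and for Otx2 (+/AA) over Otx2 (+/-) -5.28 (-7.13 to -3.43, and -0.455 for members without a copy). Between ventricles it was 6.82 (5.77 to 7.88, 4.40 over all transcripts, 1.60 for members without a copy, 1.61 with the files as attached). Members without a copy leave out mt-Rnr2, which had 53495738 counts over all pools, since 1.04% of its windows have a copy. Values for members without a copy thus hold none of the mt-Rnr2 counts, and the part of the copies in them was not tested.

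Among values past the threshold in either fit, signs changed in LV Cre-Tat over vehicle without Cre-Tat pool B for mt-Tf (-0.62, with 0.47 as the highest value when another pool was left out) and mt-Tv (-0.87, highest 0.68), and otherwise only with the files as attached. There LV Cre-Tat over vehicle had mt-Tv -0.20, mt-Rnr2 0.28, mt-Nd1 0.54, mt-Tq -1.11, mt-Nd2 0.63, mt-Co1 0.50, mt-Nd4 0.44 and mt-Nd6 0.81. The ventricles had mt-Tl1 -0.26, mt-Nd1 -0.44, mt-Tm -0.48, mt-Nd2 -0.76, mt-Tw -0.27, mt-Nd4 -0.75, mt-Nd5 -0.96, mt-Nd6 -0.95, mt-Cytb -0.64 and mt-Tp 1.16. The treatment by ventricle term had mt-Nd1 0.038, mt-Nd2 0.37, mt-Nd4 0.39, mt-Nd5 0.57, mt-Nd6 0.68 and mt-Cytb 0.19.

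Which LV and 4V pools share mice is not stated, so pool letters were not taken as pairs; same-lettered pools had correlations of deviations of -0.12 (LV), 0.13 (4V), 0.35 (+/- and wildtype), 0.08 (+/AA and wildtype), 0.06 (ventricles) and 0.07 (mutant groups). Crossing the letters in LV, an alternative chosen after seeing the data, also called 0. Total-count scaling moved the median over all genes to a log2 fold change of 0.17 in LV, 0.15 in 4V, 0.11 for Otx2 (+/AA) over wildtype, -0.18 between ventricles and 0.12 in the label by model term.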
